A study of Rattus norvegicus with 10 samples.

Results

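The subunits of the proteasome were taken as the genes whose symbol begins with Psma, Psmb, Psmc, Psmd or Psme followed by a digit. The rule found 51 probes among 40945 with a value on every array, and these probes stood for 43 genes among 13426 with a symbol. Of the 43 genes, 41 code for subunits, activators or assembly chaperones of the particle, and 2 (Psmc3ip and Psme3ip1) share the letters of the rule only. The immunoproteasome group held 5 genes (Psmb8, Psmb9, Psmb10, Psme1 and Psme2) and the constitutive group held the other 36, of which 33 were not chaperones. Psmb11 and Psmd11 had no probe with that symbol. The signal was well above background on all 10 arrays for 40 of the 41 subunit genes, and on 1 array for Psma8, the testis form of an alpha subunit.

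Liver RNA of 10 male Wistar rats was labelled with Cy3 and hybridised to 1 array per rat. Control rats (n = 3) were not irradiated (0 Gy), and TBI rats (n = 3) had total-body irradiation with 6.5 Gy from a cobalt source. MASM + TBI rats (n = 4) were given MASM, a derivative of the plant alkaloid matrine, by mouth in water at 30 mg/kg a day on the 3 days that preceded the same dose. The dose is that of the sample labels, and the published text names other doses. All livers represent the time point of 24 h, and no age is given for the animals.

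The proteasome is a barrel of stacked rings that degrades proteins tagged with ubiquitin, with the catalytic sites in the beta rings and a cap that removes the tag and unfolds the protein. Interferon induces alternative catalytic subunits and an activator ring, which form the immunoproteasome and favour peptides for display on class I molecules. In liver the immunoproteasome is best known from leukocytes and from hepatocytes exposed to interferon, while the constitutive subunits are made in all cells.

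The share of spots well above background was 57.2%, 59.9% and 58.4% on the control arrays, 64.1%, 66.8% and 70.1% on the TBI arrays, and 59.8%, 57.9%, 56.2% and 60.2% on the MASM + TBI arrays. Slide 1 carried control rats 1 to 3 and MASM + TBI rat 3, slide 2 carried TBI rats 1 to 3, and slide 3 carried MASM + TBI rats 1, 2 and 4. TBI and slide 2 therefore cannot be told apart. Where slide is taken as a fixed block, the estimate of MASM + TBI against control rests on MASM + TBI rat 3 beside the 3 control rats, so a call lost there says little about the size of the difference. As a check of the labels, 5 listed genes that p53 switches on after irradiation were followed. In TBI against control 5 of 5 rose (2.97% of all genes), and 5 of 5 rose in MASM + TBI against control (1.24% of all genes). Cdkn1a, which codes for the cell cycle inhibitor p21, had a log2 signal of 8.01, 8.25 and 8.84 in control rats, 13.47, 13.67 and 14.06 in TBI rats, and 13.06, 13.23, 12.80 and 13.58 in MASM + TBI rats. It rose by 5.36 ± 0.27 (SE) on the log2 scale in TBI against control (adjusted p 0.00013) and by 4.80 ± 0.25 in MASM + TBI against control (adjusted p 0.000146). Mdm2, which marks p53 for degradation, rose by 0.96 ± 0.16 in TBI against control (adjusted p 0.0162), a call that was lost without control rat 3. The methods' t-test was run without assuming equal variances, and with equal variances as a form added after the data were seen. After adjustment, 0 of the 5 calls in TBI against control and 1 of the 5 in MASM + TBI against control (Bax, named after its value was seen) held in the methods' t-test, and 3 and 5 with equal variances. With slide as a fixed block, 3 of the 5 calls in MASM + TBI against control held, and those of Mdm2 (1.06, adjusted p 0.0742) and Ccng1 (1.95, adjusted p 0.0558) were lost. Between MASM + TBI and TBI limma called 0 of the 5, with 1 higher at an unadjusted p under 0.05 and 0 by the methods' t-test, unadjusted or adjusted.

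The comparison of TBI with control asks what irradiation alone did to the subunit genes. 1 of 41 subunit genes rose at an adjusted p under 0.05 in limma, where 2.97% of all genes were called higher, and 0 fell, where 3.66% were called lower. The constitutive genes differed little between the groups, with a median log2 difference of 0.07 against -0.01 for all genes. Of the 36, 25 had estimates above 0 (69.4%), against 48.8% of all genes. The immunoproteasome genes had estimates below 0 for 5 of 5 genes, as did 6879 of all 13426 genes. The 5 were measured in the same rats, so their signs are not independent. Their median was -0.24, and 0 of them was called. That median was -0.48 without control rat 1, -0.11 without control rat 2, -0.10 without control rat 3 and -0.09 without TBI rat 1. The estimate of Psmb9 was 0.10 without TBI rat 1 and that of Psmb10 was 0.09 without control rat 2. At an unadjusted p under 0.05, limma gave 3 subunit genes higher (12.6% of all genes), Psmd7, Psmd12 and Psmd14, and 0 lower (12.7% of all genes). The methods' t-test gave Psmd7 and Psmd12 higher (6.17% of all genes) and 0 lower (9.66% of all genes) at an unadjusted p under 0.05. After adjustment it gave 0 subunit genes, where 0.0372% of all genes passed. With equal variances it gave Psmd7 after adjustment, where 0.506% of all genes passed. At the threshold of the study, which asks for a 1.5-fold difference beside an unadjusted p under 0.05 and was applied here in limma, 0 subunit genes were counted in either direction, where 13.1% of all genes were.

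The comparison of MASM + TBI with control uses the same 3 control rats and asks how far treated and irradiated livers lay from untreated ones. At an adjusted p under 0.05 in limma, 0 of 41 subunit genes were called higher (1.24% of all genes) and 0 lower (2.46% of all genes). The median log2 difference was 0.06 over the constitutive genes, -0.36 over the immunoproteasome genes, 5 of 5 of which had estimates below 0, and -0.00 over all genes. Of all 13426 genes 6765 had estimates below 0. Of the 36 constitutive genes 26 had estimates above 0 (72.2%), against 49.6% of all genes. The immunoproteasome median was -0.60 without control rat 1, -0.23 without control rat 2 and -0.54 without MASM + TBI rat 2, and the constitutive median was 0.03 without MASM + TBI rat 2 or 4 and 0.19 with each array scaled to its 75th percentile. At an unadjusted p under 0.05, limma gave 9 subunit genes higher (9.04% of all genes) and 2 lower (11.5% of all genes). The 2 were Psmb9 and, named after its value was seen, the ATPase Psmc3 (-0.17). The methods' t-test gave 9 higher (8.19% of all genes) and 2 lower (9.53% of all genes) without adjustment. After adjustment it gave 0, where 0.127% of all genes passed. With equal variances it gave 1 after adjustment (Psmd12, higher), where 1.83% of all genes passed. At the threshold of the study, 1 subunit gene (Psmb9) was lower and 0 were higher, where 9.18% of all genes were counted in either direction. The arrays of MASM + TBI rats 1, 2 and 4 were on another slide than those of the control rats. Values from slide 1 alone are therefore given for Psmb9, Psmb10 and the immunoproteasome median.

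The comparison of MASM + TBI with TBI asks what the treatment added to irradiation, and it shares the TBI rats with the comparison of TBI with control. At an adjusted p under 0.05 in limma, 0 of 41 subunit genes were called higher (0.387% of all genes) and 0 lower (0.693% of all genes). The median log2 difference was -0.01 over the constitutive genes, -0.25 over the immunoproteasome genes and 0.01 over all genes. The immunoproteasome median was -0.11 without TBI rat 2 and -0.12 without TBI rat 3, and leaving out rat 2 or rat 4 of the MASM + TBI group gave -0.44 or -0.15. Of the 36 constitutive genes 16 had estimates above 0 (44.4%), against 51.7% of all genes. The immunoproteasome estimates were below 0 for 5 of 5 genes, as were those of 6485 of all 13426 genes. The immunoproteasome count was 4 of 5 when each array was scaled by its 75th percentile, where Psme2 had 0.02. That scaling gave a constitutive median of 0.04, so its sign depended on the scaling, and leaving out 1 rat gave -0.04 to 0.01. At an unadjusted p under 0.05, limma gave 3 subunit genes higher (7.11% of all genes) and 3 lower (9.43% of all genes). The methods' t-test gave 3 higher (6.32% of all genes) and 2 lower (4.39% of all genes) without adjustment. After adjustment it gave 0 in either form, where 0.00745% of all genes passed, and 0.0968% with equal variances. The 3 higher genes in limma were Psmd6, Psmd5 and the ATPase Psmc6 (0.23), and the 3 lower were Psmb9, Psmd7 and the ubiquitin receptor Psmd4 (-0.22), where Psmc6 and Psmd4 were named after their values were seen. At the threshold of the study in limma, 1 subunit gene (Psmb9) was lower and 0 were higher, where 7.82% of all genes were counted in either direction. At the same threshold the methods' t-test gave 0 subunit genes, where 146 of all 13426 genes were higher and 306 lower. With equal variances it gave 1 (Psmb9), where 175 of all genes were higher and 552 lower.

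**Figure D1:**
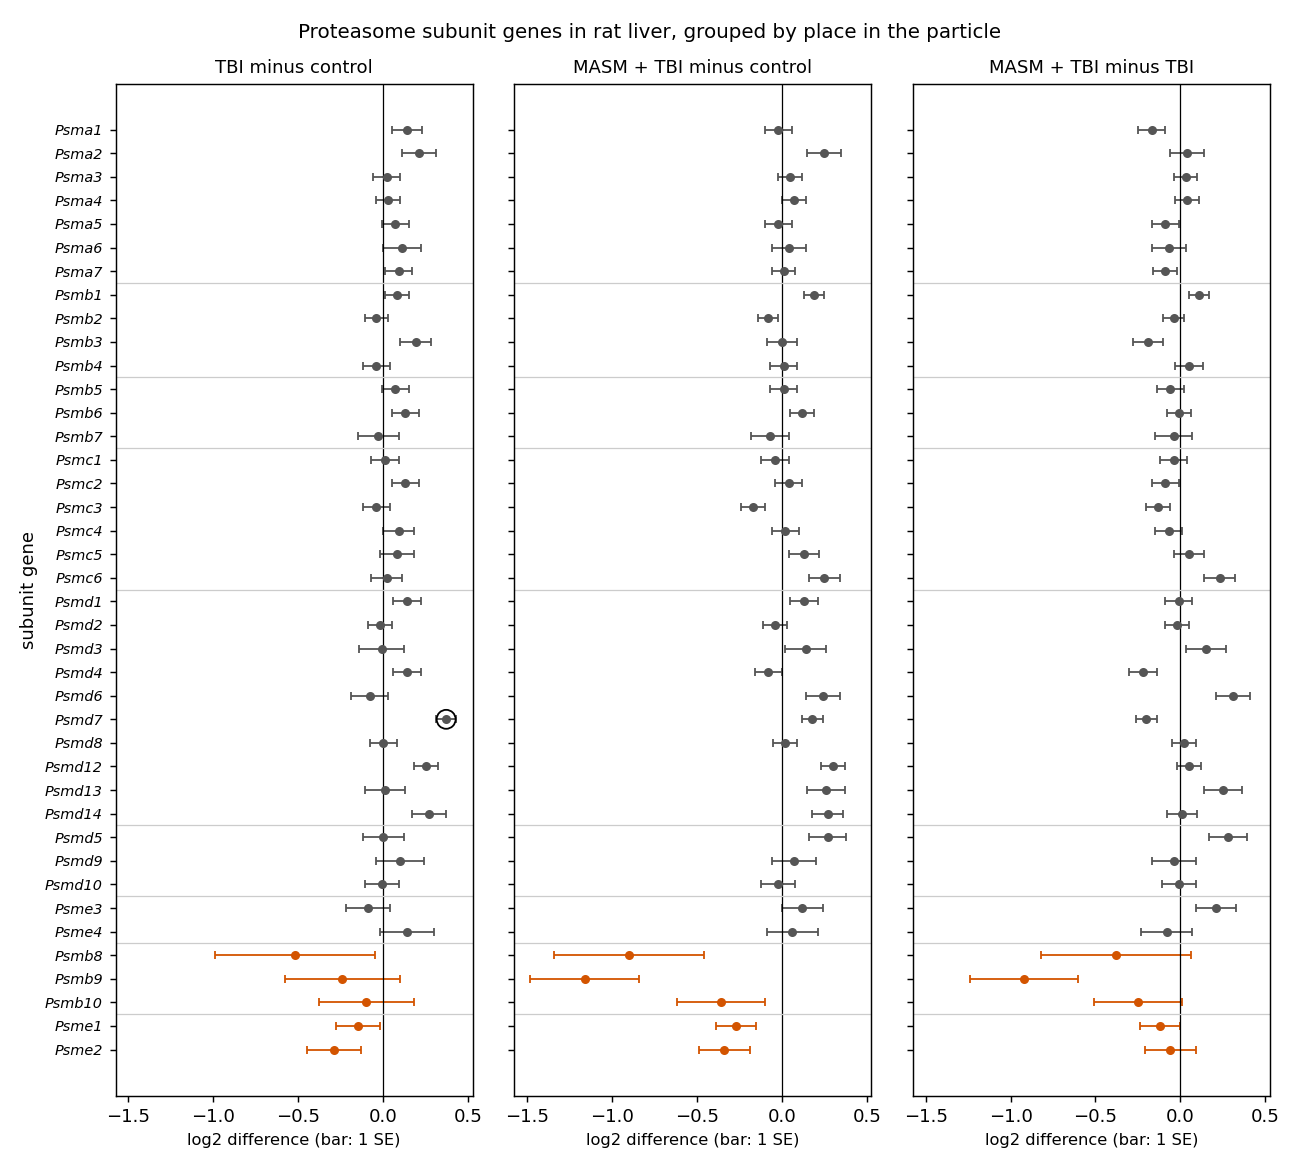
Log2 difference of each of the 40 subunit genes well above background on all 10 arrays, with bars of 1 SE (Psma8 is left out), in 3 panels for the 3 comparisons, constitutive genes in grey and immunoproteasome genes in orange, grouped by place in the particle. The circled point is Psmd7 (0.37), the gene with an adjusted p under 0.05, and Psmb9 lies farthest below 0 in MASM + TBI against control (-1.16).

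The immunoproteasome genes include the 3 catalytic subunits that interferon induces. Psmb8 (NM_080767) codes for the subunit that takes the place of the chymotrypsin-like Psmb5, and its log2 signal was 11.86, 12.95 and 13.26 in control rats, 11.33, 12.50 and 12.70 in TBI rats, and 12.06, 12.16, 11.78 and 11.18 in MASM + TBI rats. Control rat 1 and TBI rat 1 were low within their groups, and the 3 groups overlapped. The log2 difference was -0.52 ± 0.47 (SE) in TBI against control (adjusted p 0.545), -0.90 ± 0.44 in MASM + TBI against control (adjusted p 0.357) and -0.38 ± 0.44 in MASM + TBI against TBI (adjusted p 0.703). The first of these was much smaller in size without TBI rat 1 and larger without control rat 1. The last was larger in size without TBI rat 1.

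Psmb9 (NM_012708) codes for the subunit that takes the place of Psmb6, and its log2 signal was 12.84, 13.64 and 13.66 in control rats, 12.46, 13.32 and 13.64 in TBI rats, and 12.25, 12.62, 12.00 and 12.02 in MASM + TBI rats. All 4 MASM + TBI rats lay below all 3 control rats, and TBI rat 1 lay between MASM + TBI rats 1 and 2, so those groups overlapped. TBI rats differed from control rats by -0.24 ± 0.34 (SE) on the log2 scale (adjusted p 0.708). For MASM + TBI rats the difference from control was -1.16 ± 0.32 (adjusted p 0.101, unadjusted p 0.00612). MASM + TBI against TBI gave -0.92 ± 0.32 (adjusted p 0.196). With slide as a random block, the adjusted p of MASM + TBI against control was 0.0477, and over all 20 alternatives it ran from 0.0477 to 0.292, so 1 of 20 passed the threshold. The fit with the random block had a negative correlation within slides (-0.133) and called 8.54% of all genes, against 3.7% in the main fit. This 1 pass therefore does not show that the difference is free of slide. With slide as a fixed block, Psmb9, MASM + TBI against control, had -1.38 (adjusted p 0.233). MASM + TBI rat 3, on the same slide as the controls, gave -1.38, and the 3 MASM + TBI rats of slide 3 gave -1.08.

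Psmb10 (NM_001025637) codes for the subunit that takes the place of the trypsin-like Psmb7, and its log2 signal was 12.92, 13.79 and 13.47 in control rats, 13.11, 13.58 and 13.18 in TBI rats, and 13.01, 13.58, 12.81 and 12.73 in MASM + TBI rats. The 3 groups overlapped, and MASM + TBI rat 2 stood above the other rats of its group. The log2 difference was -0.10 ± 0.28 (SE) in TBI against control, -0.36 ± 0.26 in MASM + TBI against control and -0.25 ± 0.26 in MASM + TBI against TBI, with adjusted p-values of 0.857, 0.576 and 0.667. Against control, MASM + TBI rat 3 on slide 1 gave -0.58 and the MASM + TBI rats of slide 3 gave -0.28. That difference was smaller in size without control rat 2 and larger without MASM + TBI rat 2.

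Psme1 (NM_017264) and Psme2 (NM_017257) code for the subunits of the activator ring that docks on the barrel. The log2 signal of Psme1 was 12.87, 13.27 and 13.37 in control rats, 12.93, 13.06 and 13.07 in TBI rats, and 12.90, 13.00, 12.91 and 12.79 in MASM + TBI rats. That of Psme2 was 12.65, 13.24 and 13.20 in control rats, 12.59, 12.81 and 12.84 in TBI rats, and 12.74, 12.79, 12.62 and 12.62 in MASM + TBI rats. For both genes control rats 2 and 3 were above all 7 irradiated rats and control rat 1 was among them. For Psme1 the log2 difference was -0.15 ± 0.13 (SE) in TBI against control, -0.27 ± 0.12 in MASM + TBI against control and -0.12 ± 0.12 in MASM + TBI against TBI. For Psme2 the corresponding differences were -0.29 ± 0.16, -0.34 ± 0.15 and -0.06 ± 0.15, the last of which was 0.02 with each array scaled to its 75th percentile. Without control rat 1 the differences from control were larger in size for both genes, and without control rat 2 or 3 they were smaller. Without control rat 1, Psme2 passed the adjusted threshold in MASM + TBI against control, which raised the count of subunit genes called there from 0 to 1.

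Control rat 1 was the lowest control rat for 5 of the 5 immunoproteasome genes. As a mean over the 5 genes of the log2 difference from the control mean, the control rats stood at -0.50, 0.24 and 0.26, the TBI rats at -0.65, -0.08 and -0.05, and the MASM + TBI rats at -0.54, -0.30, -0.71 and -0.87. Control rat 1 thus lay within the range of the irradiated rats. The SD within groups had a median of 0.37 over the 5 immunoproteasome genes, 0.08 over the 36 constitutive genes and 0.22 over all genes. Over the 8439 genes well above background on all arrays it was 0.18. MASM + TBI rat 3 on slide 1 had a median difference from the controls of -0.58 over the 5 genes, and the MASM + TBI rats of slide 3 had -0.32.

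Each pair of an immunoproteasome subunit and the constitutive subunit whose place it takes was also followed within an array, as the difference of their log2 signals set to a mean of 0 in control rats, which shows unequal change and not levels. For Psmb9 over Psmb6 it was -0.56, 0.25 and 0.31 in control rats, -1.0, -0.30 and 0.20 in TBI rats (mean -0.37 ± 0.60, SD), and -1.22, -0.88, -1.44 and -1.56 in MASM + TBI rats. All 4 MASM + TBI rats lay below the control rats, while TBI rat 1 lay among them and TBI rats 2 and 3 among the control rats, and the MASM + TBI mean was -1.27 ± 0.30 (SD, n = 4). For Psmb8 over Psmb5 the group means were -0.59 ± 0.83 (SD, n = 3) in TBI and -0.91 ± 0.45 (SD, n = 4) in MASM + TBI, and for Psmb10 over Psmb7 they were -0.07 ± 0.28 and -0.29 ± 0.40. Without 1 rat the TBI means ran from -0.97 (control rat 1) to -0.12 (TBI rat 1) for Psmb8 over Psmb5, from -0.65 (control rat 1 or TBI rat 3) to -0.05 (TBI rat 1) for Psmb9 over Psmb6 and from -0.22 (TBI rat 2) to 0.11 (control rat 2) for Psmb10 over Psmb7. The MASM + TBI means ran from -1.29 (control rat 1) to -0.66 (control rat 3), from -1.55 (control rat 1) to -1.12 (control rat 3) and from -0.47 (MASM + TBI rat 2) to -0.11 (control rat 2). The pairs were compared without a test, and for Psmb8 over Psmb5 and Psmb10 over Psmb7 the MASM + TBI rats overlapped with the control rats as well as with the TBI rats.

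**Figure D2:**
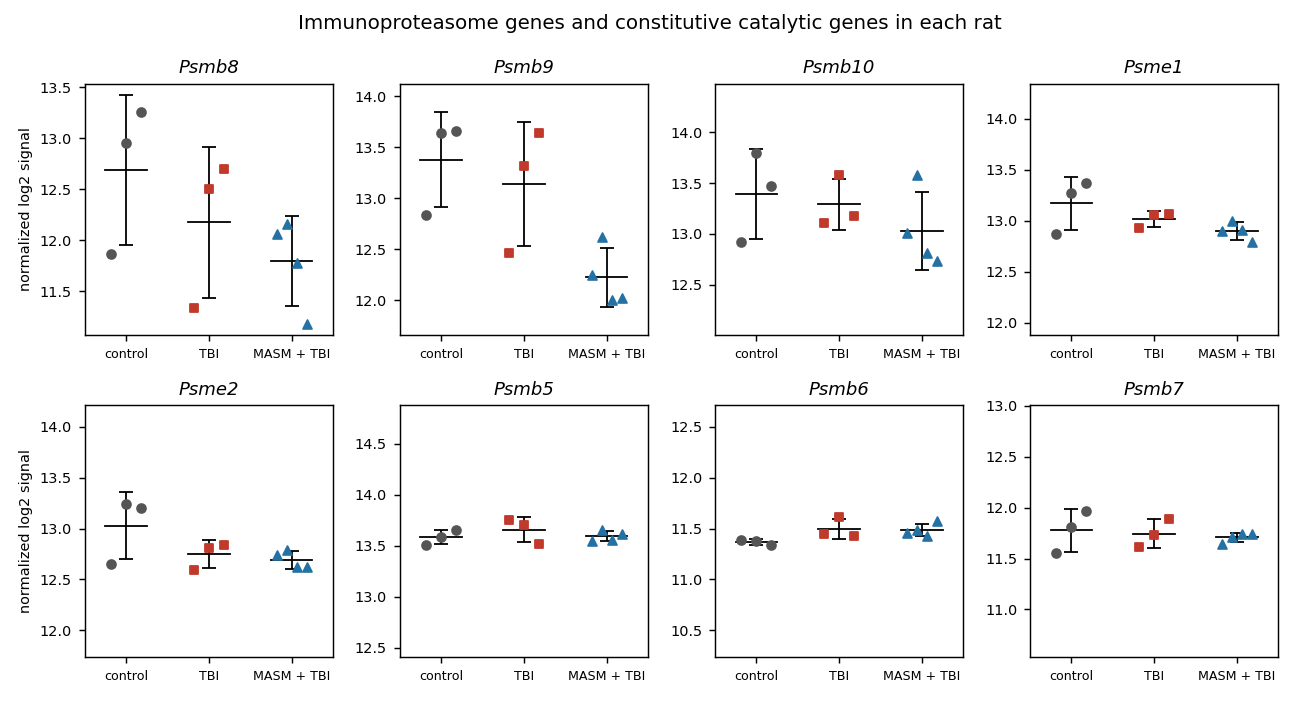
Normalized log2 signal of the 5 immunoproteasome genes and the 3 constitutive catalytic genes in each rat (points), with the group mean and SD (lines), in control, TBI and MASM + TBI rats, all panels spanning the same number of log2 units. The 4 MASM + TBI rats lie between 12.00 and 12.62 for Psmb9, below the control rats (12.84 to 13.66), while Psmb5 lies between 13.51 and 13.75 in all 10 rats.

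The constitutive catalytic genes showed little spread. Psmb5 had a log2 signal of 13.51, 13.59 and 13.65 in control rats, 13.75, 13.70 and 13.52 in TBI rats, and 13.55, 13.65, 13.56 and 13.62 in MASM + TBI rats, with overlapping groups. Psmb6, the caspase-like subunit, had 11.39, 11.38 and 11.34 in control rats, 11.45, 11.61 and 11.43 in TBI rats, and 11.46, 11.49, 11.43 and 11.57 in MASM + TBI rats, so all 7 irradiated rats lay above the control rats by a small distance. Psmb7 had 11.55, 11.81 and 11.97 in control rats, 11.61, 11.73 and 11.89 in TBI rats, and 11.64, 11.71, 11.74 and 11.74 in MASM + TBI rats, again with overlap. Their log2 differences from control lay between -0.03 and 0.13 in TBI rats and between -0.07 and 0.12 in MASM + TBI rats, and Psmb6 had adjusted p-values of 0.363 and 0.499.

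The structural rings of the barrel gave 0 genes called by limma in any comparison. The 8 alpha ring genes, which form the gate of the barrel, had a median log2 difference of 0.08 in TBI against control, 0.05 in MASM + TBI against control and -0.02 in MASM + TBI against TBI. At an unadjusted p under 0.05, limma gave 1 of the 8 (Psma2, named after its value was seen, 0.25) higher in MASM + TBI against control and 0 in the other comparisons. Of all genes 9.04% were higher at that threshold in MASM + TBI against control. For the 4 beta ring genes without catalytic activity the medians were 0.02, 0.01 and 0.01. Psmb1, also named after its value was seen, was higher without adjustment in MASM + TBI against control (0.19), as were 9.04% of all genes. Psma8 was at 1.24 to 1.25 in 9 rats and at 5.60 in MASM + TBI rat 2, so its estimate of 1.09 rests on that rat.

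The base of the cap holds 6 ATPases that unfold the protein. Their log2 differences ran from -0.04 to 0.13 in TBI against control and from -0.17 to 0.25 in MASM + TBI against control, with 0 called by limma. At an unadjusted p under 0.05 there were 0 and 2 of the 6 (Psmc6 higher, Psmc3 lower). In MASM + TBI against control 9.04% of all genes were higher and 11.5% lower at that threshold. The 3 chaperones that assemble the base had medians of -0.00, 0.07 and -0.01 in the comparisons of TBI with control, MASM + TBI with control and MASM + TBI with TBI. The chaperone Psmd5 had a log2 signal of 9.19, 9.05 and 9.13 in control rats, 9.02, 8.96 and 9.38 in TBI rats, and 9.35, 9.29, 9.47 and 9.48 in MASM + TBI rats. All 4 MASM + TBI rats lay above the control rats, and TBI rat 3 lay among them. The log2 difference of Psmd5 was 0.27 ± 0.11 (SE) in MASM + TBI against control (adjusted p 0.261) and 0.28 ± 0.11 in MASM + TBI against TBI (adjusted p 0.262), and the second passed the threshold without TBI rat 3, which raised that count of subunit genes called from 0 to 1.

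The other genes of the cap gave the 1 call. Psmd7 (NM_001107426) codes for the partner of the deubiquitinase in the lid, and its log2 signal was 11.37, 11.37 and 11.35 in control rats, 11.71, 11.76 and 11.74 in TBI rats, and 11.49, 11.52, 11.53 and 11.61 in MASM + TBI rats. On this brightest probe the 3 groups did not overlap, with TBI rats highest and MASM + TBI rats between them and the control rats. Psmd7 rose by 0.37 ± 0.06 (SE) in TBI against control (1.30-fold, adjusted p 0.0168). It differed by 0.18 ± 0.06 in MASM + TBI against control (adjusted p 0.177) and by -0.20 ± 0.06 in MASM + TBI against TBI (adjusted p 0.153). The 2 other probes of Psmd7 gave 0.11 (adjusted p 0.459) and 0.28 (adjusted p 0.149) in TBI against control. In MASM + TBI against TBI they gave 0.07 (adjusted p 0.702) and 0.06 (adjusted p 0.791), opposite in sign to the brightest probe, and the MASM + TBI rats overlapped with the TBI rats on both.

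The call of Psmd7, TBI against control, was lost in 6 of 19 alternatives, over which the adjusted p ran from 0.00305 to 0.175. The 6 were without control rat 2 (adjusted p 0.0519), without control rat 3 (adjusted p 0.0607), with the mean over its probes (adjusted p 0.0785), with only the 2 groups compared (adjusted p 0.0718), with replicate number as a block, and with the methods' t-test after adjustment, though not in its form with equal variances.

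Psmd12, a scaffold of the lid, had a log2 signal of 11.36, 11.44 and 11.37 in control rats, 11.61, 11.58 and 11.72 in TBI rats, and 11.69, 11.62, 11.73 and 11.71 in MASM + TBI rats. All 7 irradiated rats lay above the 3 control rats. The log2 difference was 0.25 ± 0.07 (SE) in TBI against control (adjusted p 0.0852) and 0.30 ± 0.07 in MASM + TBI against control (adjusted p 0.0554). The second passed the threshold in 5 of 20 alternatives, over which the adjusted p ran from 0.0237 to 0.209, and the first in 2 of 19, from 0.0261 to 0.257. Among the 5 was the fit without TBI rat 3, which changes the shared estimate of the spread and raised the count of subunit genes called in MASM + TBI against control from 0 to 1.

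Psmd14, the deubiquitinase of the lid, had a log2 signal of 8.79, 9.04 and 8.84 in control rats, 8.99, 9.26 and 9.21 in TBI rats, and 9.10, 9.17, 9.19 and 9.19 in MASM + TBI rats. TBI rat 1 lay below control rat 2, and all MASM + TBI rats lay above the control rats. The log2 difference was 0.27 ± 0.10 (SE) in TBI against control (adjusted p 0.153) and 0.27 ± 0.09 in MASM + TBI against control (adjusted p 0.174). Over the 10 cap genes that are not ATPases or chaperones the medians were 0.07, 0.16 and 0.01 in the comparisons of TBI with control, MASM + TBI with control and MASM + TBI with TBI.

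Psmd6 and Psmd13, both lid subunits, had the largest and the third largest positive estimates in MASM + TBI against TBI among the subunit genes well above background on all arrays. The log2 signal of Psmd6 was 9.46, 9.60 and 9.64 in control rats, 9.50, 9.38 and 9.59 in TBI rats, and 9.84, 9.89, 9.59 and 9.89 in MASM + TBI rats, and that of Psmd13 was 8.94, 8.96 and 9.27, then 9.05, 9.22 and 8.94, then 9.34, 9.16, 9.38 and 9.41. MASM + TBI rat 3 for Psmd6 and rat 2 for Psmd13 lay among the other rats, and the rest of that group lay above them. The log2 difference was 0.31 ± 0.10 (SE) for Psmd6 (adjusted p 0.167) and 0.25 ± 0.11 for Psmd13 (adjusted p 0.317).

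**Figure D3:**
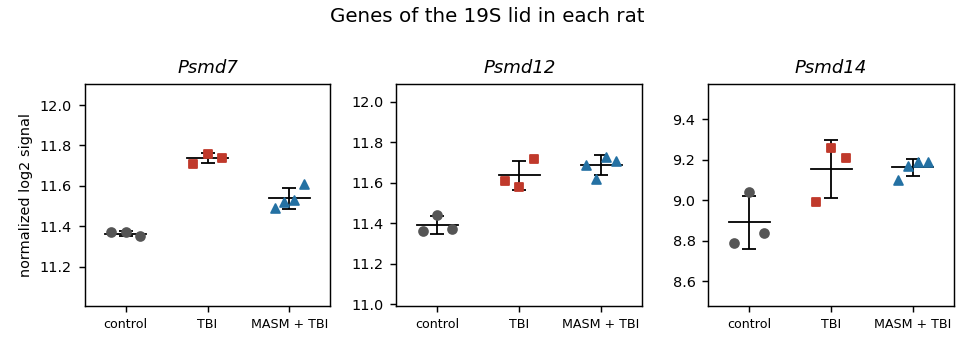
Normalized log2 signal of Psmd7, Psmd12 and Psmd14 in each rat (points), with the group mean and SD (lines), in control, TBI and MASM + TBI rats. The 3 TBI rats lie at 11.71 to 11.76 for Psmd7, above the control rats at 11.35 to 11.37 and the MASM + TBI rats at 11.49 to 11.61.

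Psme3 and Psme4, the activators outside the immunoproteasome, had log2 differences of -0.09 and 0.14 in TBI against control and of 0.12 and 0.06 in MASM + TBI against control, with 0 called by limma and 0 at an unadjusted p under 0.05. Of the 2 genes that share the letters only, Psmc3ip, a recombination factor, had -0.25 in TBI against control (adjusted p 0.325) and Psme3ip1, a partner of Psme3, had -0.08 (adjusted p 0.7). Both had adjusted p-values above 0.05 in the other comparisons as well.

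Most constitutive genes had log2 differences near 0. Among the 35 constitutive genes well above background on all arrays, 33 differed by at most 0.25 on the log2 scale in TBI against control, 29 in MASM + TBI against control and 33 in MASM + TBI against TBI. For all 8439 genes well above background on all arrays the shares were 57.7%, 60.6% and 71.9%. Within 0.5 lay 35 of 35 constitutive genes in each comparison, and 82.3%, 84.6% and 89.7% of all such genes. These counts carry no test. With each array scaled to its 75th percentile, the constitutive medians were 0.12 in TBI against control and 0.19 in MASM + TBI against control.

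The genes that assemble and control the proteasome were followed as a list of 21, of which 15 had a probe. In TBI against control 2 rose (2.97% of all genes) and 1 fell (3.66% of all genes) at an adjusted p under 0.05. In MASM + TBI against control 1 rose (1.24% of all genes) and 0 fell (2.46% of all genes). Between MASM + TBI and TBI limma called 0 (0.387% of all genes higher and 0.693% lower). At an unadjusted p under 0.05, 0 were higher there (7.11% of all genes). Akirin2, named after its value was seen, was lower (-0.24, 9.43% of all genes). After adjustment, the methods' t-test gave 0 in each comparison. With equal variances it gave 1 (Nfe2l2) in MASM + TBI against control, where 1.83% of all genes passed. Nfe2l2, a transcription factor of the oxidative stress response that also acts on proteasome genes, had a log2 signal of 11.43, 11.20 and 11.26 in control rats, 12.59, 12.18 and 12.50 in TBI rats, and 12.34, 12.26, 12.16 and 12.48 in MASM + TBI rats. All 7 irradiated rats lay above the control rats. Nfe2l2 rose by 1.13 ± 0.13 (SE) in TBI against control (adjusted p 0.00372) and by 1.01 ± 0.12 in MASM + TBI against control (adjusted p 0.0053). Both calls held without any 1 rat, and the second was lost with slide as a fixed block (0.86, adjusted p 0.0682) and with the methods' t-test after adjustment, which ended the first as well. Over their alternatives the adjusted p ran from 0.000633 to 0.228 and from 0.00145 to 0.0729. Nfe2l1, the other factor of this kind, had no probe with that symbol.

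Psmf1, an inhibitor of the barrel, had a log2 signal of 11.69, 12.11 and 12.14 in control rats, 11.49, 11.35 and 11.23 in TBI rats, and 11.43, 11.55, 11.45 and 11.66 in MASM + TBI rats. All irradiated rats lay below the control rats, MASM + TBI rat 4 by a small distance. Psmf1 fell by 0.63 on the log2 scale in TBI against control (SE 0.14, adjusted p 0.0383) and had -0.46 ± 0.13 in MASM + TBI against control (adjusted p 0.108). Its call was lost in 10 of 19 alternatives, among them the fits without control rat 2 or 3, TBI rat 2 or 3, or MASM + TBI rat 1, 2 or 4 (adjusted p up to 0.123), and over the 19 the adjusted p ran from 0.00949 to 0.291. Psmf1 also passed in MASM + TBI against control without control rat 1.

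Ubqln1, a shuttle that brings tagged proteins to the particle, had a log2 signal of 11.81, 11.71 and 11.70 in control rats, 12.18, 12.15 and 12.01 in TBI rats, and 12.05, 11.95, 11.93 and 12.13 in MASM + TBI rats. All irradiated rats lay above the control rats. Ubqln1 rose by 0.37 ± 0.09 (SE) in TBI against control (adjusted p 0.0467) and had 0.27 ± 0.08 in MASM + TBI against control (adjusted p 0.125). Its call was lost in 12 of 19 alternatives, among them the fits without any 1 control rat, without TBI rat 1 or 2, or without MASM + TBI rat 1, 2 or 4 (adjusted p up to 0.139), and over the 19 the adjusted p ran from 0.0104 to 0.247. Pomp, which assembles the barrel, had 0.07 ± 0.09 and 0.18 ± 0.08 in the comparisons of TBI and of MASM + TBI with control (adjusted p 0.667 and 0.313). Of 4 ubiquitin genes, with Ubb as a source of ubiquitin, limma called 0 in each comparison, and the methods' t-test gave 0 after adjustment. At an unadjusted p under 0.05, Uba1 was lower by limma in both comparisons with control (12.7% and 11.5% of all genes). Uba1, which activates ubiquitin, was named after its values were seen and had -0.38 (adjusted p 0.124) and -0.32 (adjusted p 0.22), and the first passed the threshold without control rat 1 (-0.51). Ubb had 0.10 ± 0.12 in TBI against control.

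The class I peptide loading genes receive the peptides that the proteasome cuts, and 7 of 9 had a probe. In each comparison limma called 0 of the 7, and the methods' t-test gave 0 after adjustment. At an unadjusted p under 0.05 limma gave 1 (Tap1), 2 (Tap1 and Tapbp) and 1 (B2m) lower and 0 higher. Over all genes 12.7%, 11.5% and 9.43% were lower at that threshold. Tap1, a peptide transporter next to Psmb9 on the genome, had a log2 signal of 8.70, 9.33 and 9.46 in control rats, 8.08, 8.60 and 8.64 in TBI rats, and 8.16, 8.41, 8.24 and 8.14 in MASM + TBI rats. All 7 irradiated rats lay below the control rats. The log2 difference of Tap1 was -0.73 ± 0.22 (SE) in TBI against control (adjusted p 0.0959) and -0.93 ± 0.21 in MASM + TBI against control (adjusted p 0.0536). The second passed the threshold in 6 of 20 alternatives and the first in 2 of 19, with adjusted p-values from 0.0183 to 0.348 and from 0.0269 to 0.37, and without control rat 1 both passed, the second also without TBI rat 1. B2m, the light chain of class I molecules, had 0.14 ± 0.14 in TBI against control and -0.18 ± 0.13 in MASM + TBI against control, and the first was -0.01 with each array scaled to its 75th percentile.

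Of 20 listed genes that respond to or signal for interferon, 19 had a probe, and Ifit1 and Ifng were not well above background on any array. In TBI against control 10 of the 19 fell, where 3.66% of all genes did, and 0 rose (2.97% of all genes). In MASM + TBI against control 12 fell (2.46% of all genes) and 0 rose (1.24% of all genes). Between MASM + TBI and TBI limma called 0 (0.387% of all genes higher and 0.693% lower). At an unadjusted p under 0.05, Stat2 was higher there (0.39, 7.11% of all genes). Gbp2, named after its value was seen, was lower (-1.32, 9.43% of all genes). Without TBI rat 1, 2 genes were called lower there, Gbp2 (-1.80) and Gbp5 (-2.06), the second also named after its value was seen. After adjustment, the methods' t-test gave 0 in each comparison, as it passed few genes of any kind. With equal variances it gave 0, 5 (Cxcl10, Ifit3, Mx2, Rsad2 and Usp18) and 0, where 0.506%, 1.83% and 0.0968% of all genes passed. The 10 genes were Stat2, Irf7, Irf9, Isg15, Mx1, Mx2, Oas1a, Ifit3, Usp18 and Rsad2, with log2 differences from -3.69 for Rsad2 to -0.75 for Irf9, and the 12 were these with Ifit2 and Cxcl10. Leaving out 1 rat at a time, 8 of the 10 and 6 of the 12 passed every time, and the fewest passed without control rat 3. Calls were also gained by limma, Cxcl10 in TBI against control without TBI rat 2 (-2.12, adjusted p 0.022). In MASM + TBI against control Gbp2 (-1.85) and Gbp5 (-1.99) were gained without TBI rat 1, and Gbp2 without TBI rat 3. In MASM + TBI against control 3.7% of all genes were called in the main fit. Of the 12 genes called there, 7 passed without control rat 2 (1.46% of all genes) and 6 without control rat 3 (1.42% of all genes). With only the 2 groups compared 9 of the 12 held (4.33% of all genes), and Stat2, Irf7 and Ifit2 were lost. With slide as a fixed block 1 of the 12 (Rsad2, adjusted p 0.048) held and 11 were lost, with log2 differences from -3.28 to -0.39 in the 11, and with replicate number as a block 4 held. The replicate block passed 0.857% of all genes in MASM + TBI against control. In TBI against control 6.63% of all genes were called in the main fit. Of the 10 genes called there, 6 held with only the 2 groups compared (2.68% of all genes), and Irf7, Irf9, Isg15 and Mx1 were lost. With replicate number as a block 8 held (2.91% of all genes), and Irf7 and Mx1 were lost. As a mean over the 19 genes of the log2 difference from the control mean, the control rats stood at -0.50, 0.41 and 0.09, the TBI rats at -1.69, -1.29 and -1.50, and the MASM + TBI rats at -1.57, -1.45, -1.74 and -1.76.

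Isg15, a ubiquitin-like protein that interferon induces, had a log2 signal of 14.03, 15.85 and 15.49 in control rats, 12.48, 12.08 and 11.65 in TBI rats, and 12.00, 12.43, 11.85 and 12.13 in MASM + TBI rats. The control rats stood apart from all irradiated rats, and control rat 1 was the lowest of them. Isg15 fell by 3.06 on the log2 scale in TBI against control (SE 0.44, adjusted p 0.00834) and by 3.02 in MASM + TBI against control (SE 0.41, adjusted p 0.00858). Both calls held without any 1 rat and were lost with the methods' t-test after adjustment. They were also lost with only the 2 groups compared (TBI against control) and with replicate number or slide as a fixed block (MASM + TBI against control). Over the alternatives the adjusted p of Isg15 ran from 0.00134 to 0.263 and from 0.0011 to 0.283. Irf1, a factor that binds interferon response elements, had a log2 signal of 6.54, 7.10 and 7.03 in control rats, 6.21, 6.83 and 6.48 in TBI rats, and 6.27, 6.34, 6.20 and 6.44 in MASM + TBI rats. TBI and control rats overlapped while MASM + TBI and control rats did not, and the log2 differences of Irf1 were -0.38 ± 0.19 (adjusted p 0.268) and -0.57 ± 0.18 (adjusted p 0.138).

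**Figure D4:**
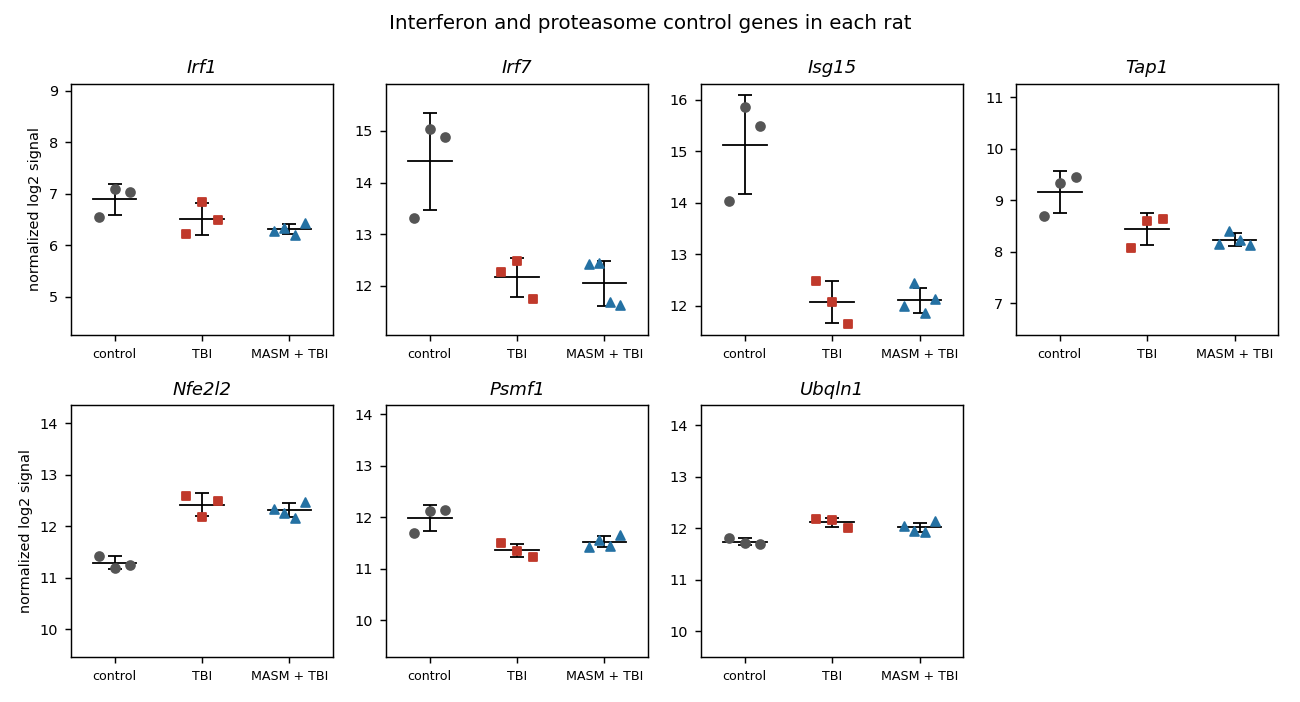
Normalized log2 signal of 3 interferon genes, Tap1 and 3 genes that control the proteasome in each rat (points), with the group mean and SD (lines), in control, TBI and MASM + TBI rats, all panels spanning the same number of log2 units. For Isg15 the control rats lie at 14.03 to 15.85 and the irradiated rats at 11.65 to 12.48, and for Nfe2l2 the control rats lie at 11.20 to 11.43 and the irradiated rats at 12.16 to 12.59.

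Lists of cell type markers were followed beside the immunoproteasome genes, since fewer cells of a type and less RNA per cell cannot be told apart in RNA of whole liver. The 4 natural killer cell markers, with Nkg7 the brightest and all 4 above background on some arrays, stood at a mean log2 difference from the control mean of -0.59, 0.61 and -0.02 in control rats, -1.44, 0.34 and -0.28 in TBI rats, and -0.93, -1.31, -1.51 and -1.94 in MASM + TBI rats. Ptprc, found on all leukocytes, stood at -0.42, 0.48 and -0.07, at -0.85, 0.23 and -0.00, and at -1.11, -0.67, -1.06 and -1.32. Control rat 1 and TBI rat 1 were the lowest of their groups in both, as for the mean of the immunoproteasome genes, and the MASM + TBI rats lay below the other 4 rats of the control and TBI groups. The same rats were also lowest in their groups for the means of the T cell, macrophage, hepatocyte, interferon and class I lists. They were not for the B cell and endothelial lists, so the order of rats is not particular to natural killer markers and Ptprc. At an unadjusted p under 0.05 limma gave 0 of the 5 genes (Ptprc and the natural killer markers) in TBI against control, where 12.7% of all genes were lower. It gave 4 lower in MASM + TBI against control (11.5% of all genes) and 2 lower in MASM + TBI against TBI (9.43% of all genes). After adjustment limma called 0 of these 5 genes in any comparison, and the methods' t-test gave 0. Without TBI rat 1, limma called 1 of them lower in MASM + TBI against control (Gzmb, named after its value was seen). Their part in the result was not tested.

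The 7 T cell markers stood at -0.20, 0.14 and 0.07 in control rats, -1.79, -1.34 and -1.06 in TBI rats, and -0.97, -0.92, -1.52 and -1.50 in MASM + TBI rats, with Cd3d the brightest and Cd3e and Cd5 not above background on any array. Limma called 3 lower in TBI against control (Cd3e, Cd3g and Cd2), where 3.66% of all genes were. It called 2 lower in MASM + TBI against control (Cd3e and Cd3g), where 2.46% of all genes were. Cd2 was at least 5.14-fold lower in TBI than in control rats. The call of Cd3e in MASM + TBI against control was lost with slide as a fixed block, with 75th percentile scaling and with normexp, which also ended its call in TBI against control, while that of Cd3g held in these fits. In MASM + TBI against control Cd8a, named after its value was seen, was also called lower without TBI rat 1, and Cd2 without MASM + TBI rat 2. Cd2 was above background on 2 of 4 MASM + TBI arrays and on 0 of 3 TBI arrays, and its adjusted p in MASM + TBI against TBI was 0.0736 (0.0383 without MASM + TBI rat 4, and 0.291 with normexp), so no fold is given. Lck and Cd5, named after their values were seen, had estimates above 0 in TBI against control, 0.55 (adjusted p 0.349) and 0.30 (adjusted p 0.55). Of 4 B cell markers 2 had a probe, with Cd22 the brightest, and they stood at 0.44, -0.19 and -0.25, at -1.49, -1.19 and -0.86, and at -1.48, -1.66, -1.39 and -1.56. Limma called 1 of the 2 lower in both comparisons with control, Cd79b, which was at least 4.98-fold lower in TBI and at least 2.55-fold lower in MASM + TBI rats. For each bound, an array not above background for the gene is set at the lowest signal called above background on that array. Its own signal is used if higher, so the pair does not order the groups. Cd79b was above background on 0 of 3 TBI arrays and 0 of 4 MASM + TBI arrays, so its size is given as these bounds. The first of these calls was lost with normexp and the second with slide as a fixed block (adjusted p 0.143) and with replicate number as a block, and the methods' t-test gave 0 B or T cell markers after adjustment, or, with equal variances, Cd2 in TBI against control and Cd3e and Cd3g in MASM + TBI against control. Cd22, whose values were looked at afterwards, had 0.54 ± 0.18 in TBI against control (adjusted p 0.117) and -0.04 in MASM + TBI against control. The first passed the threshold without TBI rat 1 (adjusted p 0.0315) and with slide as a random block, where 18.2% of all genes passed. Cd22 had -0.58 in MASM + TBI against TBI (adjusted p 0.141, and 0.0306 without TBI rat 1). The low means of the 2 markers therefore rest on Cd79b. With normexp, whose offset compresses dim signals, the log2 difference in TBI against control was -0.47 for Cd2 and -0.31 for Cd79b, and that of Cd79b in MASM + TBI against control was -0.41, so the bounds given hold for the deposited background correction only.

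The Kupffer cell and macrophage markers (7 of 8 with a probe, Clec4f the brightest, each above background on at least 1 array) stood at -0.37, 0.33 and 0.04 in control rats, -0.01, 0.86 and 0.54 in TBI rats, and 0.06, -0.12, -0.35 and -0.39 in MASM + TBI rats. The endothelial markers (4 of 5 with a probe, Kdr the brightest) stood between -0.31 and 0.35, and the hepatocyte markers (7 of 7, Serpina1 the brightest) between -0.09 and 0.53, in all 10 rats. Limma called 0 of these genes in any comparison, and the methods' t-test gave 0 after adjustment. Without TBI rat 1, limma called 1 macrophage gene higher in TBI against control (Adgre1) and 3 lower in MASM + TBI against TBI (Adgre1, Cd68 and Csf1r), and without TBI rat 3 it called 1 hepatocyte gene lower in TBI against control (Ttr), all 4 genes being named after their values were seen. At an unadjusted p under 0.05 limma gave 1 macrophage gene higher, 2 endothelial genes higher, and 2 hepatocyte genes higher and 1 lower in TBI against control. In MASM + TBI against control it gave 0 macrophage genes, 1 endothelial gene higher and 1 lower, and 4 hepatocyte genes higher. For MASM + TBI against TBI it gave 5 macrophage genes, all lower, 0 endothelial and 0 hepatocyte genes. There the methods' t-test gave 0 macrophage genes and 1 endothelial gene (lower) without adjustment. With equal variances it gave 2 macrophage genes and 1 endothelial gene, all lower. At that threshold limma gave 12.6%, 9.04% and 7.11% of all genes higher and 12.7%, 11.5% and 9.43% lower in the 3 comparisons. The part of macrophages, endothelial cells and hepatocytes in the values of the immunoproteasome genes was not tested.

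Promoters from RefSeq on the rat assembly GRCr8, each from 250 bases before to 50 bases after the start, were searched on both strands for letters known from interferon and stress responses, and 37 of the 41 subunit genes had one. The letters of interferon response elements, GAAA followed by any 2 bases and GAAA, were in 3.92% of all 33469 promoters. They were in 3 of 5 immunoproteasome promoters (Psmb8, Psmb10 and Psme2) and in 3 of 32 constitutive promoters (Psma4, Psmb3 and Psmd7). They were also in 8 of 15 promoters of the interferon list and in 4 of 6 of the class I list. The letters TTCNNNGAA, as in gamma-activated sites, were in 8.87% of all promoters. They were in 1 of 5 immunoproteasome promoters (Psmb8) and in 3 of 32 constitutive promoters (Psmc6, Psmd3 and Psmd7). The letters TGACNNNGC, the core of the antioxidant response element, were in 12.1% of all promoters, in 8 of 32 constitutive promoters (25.0%) and in 0 of 5 immunoproteasome promoters. A match is a description of the sequence only. The promoter of Psmb9 held none of the 3 motifs within this window, and it shares 44 bases with that of Tap1.

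The stretches of the 3 immunoproteasome promoters and of the Tap1 promoter with the letters of interferon response elements are shown because the 3 hold these letters among the immunoproteasome genes and Tap1 lies next to Psmb9. Tap2, Tapbp and B2m of the class I list held them too and are not shown. Each is given 5′ to 3′ on the strand of the gene, with the match on either strand in capitals. They lie on the minus strand at chr20:4657022-4657141 for Psmb8, chr19:50743283-50743402 for Psmb10, chr15:33052742-33052861 for Psme2 and chr20:4668594-4668713 for Tap1, each with a length of 120 bases.
Psmb8: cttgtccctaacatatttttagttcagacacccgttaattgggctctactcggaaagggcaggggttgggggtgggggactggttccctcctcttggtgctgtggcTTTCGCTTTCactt
Psmb10: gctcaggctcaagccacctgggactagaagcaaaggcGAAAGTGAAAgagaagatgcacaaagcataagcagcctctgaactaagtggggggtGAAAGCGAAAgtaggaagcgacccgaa
Psme2: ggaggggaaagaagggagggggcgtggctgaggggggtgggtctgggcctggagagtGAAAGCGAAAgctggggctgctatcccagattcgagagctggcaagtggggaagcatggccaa
Tap1: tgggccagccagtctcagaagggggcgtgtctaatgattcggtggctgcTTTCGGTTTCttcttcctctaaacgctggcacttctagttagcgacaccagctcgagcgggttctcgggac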

How the data were processed

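Liver RNA from control (n = 3), TBI (n = 3) and MASM + TBI (n = 4) rats was measured on single-colour Agilent whole rat genome arrays, 1 per rat. The authors deposited the Feature Extraction 10.7.3.1 output of each array and a table of the same processed signals, both in units of intensity, corrected for background within the array and not normalized between arrays. The table matched the processed signal exactly (largest difference 0). Each array had 45018 spots, of which 1639 were controls, with 0 saturated.

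Spots called outliers by Feature Extraction were left out, signals were put on the log2 scale and quantile normalized, and spots of the same probe were averaged. There were 41012 probes, and the 40945 measured on every array were tested (67 were not). The tool limma 3.58.1 in R 4.3.3 fitted the 3 groups together, with moderated two-sided tests and Benjamini-Hochberg adjustment over all 40945 probes (prior degrees of freedom 1.43). A call means an adjusted p under 0.05. A gene was represented by its brightest probe. A symbol was given to 16968 probes for 13438 genes by matching the accessions of the array design to RefSeq transcripts, and 13426 of these genes had a value. Detection is the well above background call of Feature Extraction. The number of arrays limits the precision. Python 3.11.15 with pandas 2.3.3, numpy 2.4.6 and matplotlib 3.10.9, and the data.table package (1.17.8) in R, did the rest.

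The genes named were the 5 immunoproteasome genes, the 3 constitutive catalytic genes, each subunit called in any comparison, for each comparison the 3 subunits with the largest and the 3 with the smallest log2 difference among those well above background on all arrays, and the 2 genes that share the letters only. From the pathway and marker lists they were the genes called in any comparison, and always Pomp, Nfe2l1, Ubb, Tap1, B2m, Irf1 and Cdkn1a. The interferon, ubiquitin and B cell lists are each given without 1 of the genes first written for them, for a reason that does not rest on their values. The members and lists were chosen with earlier results of these data known.

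The alternatives were scaling of each array to its 75th percentile, normexp background correction of the median signals with an offset of 50, the deposited table, a filter on dim probes (25275 kept), the mean over the probes of a gene, only the 2 groups compared, a trended and robust prior, slide as a random block (consensus correlation -0.133) or a fixed block (with 1 MASM + TBI rat on the slide of the controls), replicate number as a block, leaving out each rat in turn, the methods' t-test without assuming equal variances, unadjusted and adjusted over all probes, the threshold of the study (a 1.5-fold difference beside an unadjusted p under 0.05), and the constitutive list without its chaperones. Applying these to the pairs of exchanged subunits, and the form of the methods' t-test with equal variances, were chosen after seeing the data. The deposited table equals the processed signal and is left out of the counts of alternatives. Promoters came from RefSeq (assembly GRCr8).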

Additional observations from a re-analysis of the deposited data

Results flagged for a closer look

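In 7 of 74 results examined in the 4 MASM + TBI rats, the highest or lowest rat stood apart, with a gap to its neighbour that made up more of the range of the group than Dixon's critical value for 4 samples allows. Chance alone gives about 1 in 20 such cases, and the groups of 3 rats were not examined. All values are log2 signals. Psmd6 was 9.59 in rat 3 against 9.84 to 9.89 in the other rats, Psmd4 was 12.48 in rat 1 against 12.61 to 12.63, Irf9 was 8.01 in rat 4 against 8.25 to 8.29, and Cxcl10 was 7.90 in rat 4 against 8.50 to 8.53. Psma3 was 12.54 in rat 3 against 12.47 to 12.48, Psme3 was 10.85 in rat 4 against 10.60 to 10.63, and Psma8 was 5.60 in rat 2 against 1.24 to 1.25. Apart from Psma8, where the high rat was the 1 array well above background, the gaps were under 1 log2 unit.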

How the results depend on the processing

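Of 135 single-gene results, each a gene in 1 comparison, 44 passed the adjusted threshold. Their 2607 values under the alternatives gave the same direction and the same side of the threshold in 2357 cases, lost the call in 140, gained it in 35 and changed sign in 75, and none of the sign changes was in a result that had passed. The deposited table, which holds the same values, is not counted. The cause was not tested for any of the changes given here.

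The count of subunit genes called in TBI against control was 1, where 6.63% of all genes were called. It was 2 with normexp (7.49% of all genes) and 2 with slide as a random block (18.2%). With the unadjusted methods' t-test it was 2, where 6.17% of all genes were higher and 9.66% lower. It was 0 with the mean over probes (6.47% of all genes), with only the 2 groups compared (2.68%) and with the replicate block (2.91%). It was also 0 with the methods' t-test after adjustment (0.0372%) or at the threshold of the study, and at that threshold in limma (13.1%). Leaving out 1 rat gave 0 to 1, where 2.88% to 7.92% of all genes were called. With equal variances, the methods' t-test gave 2 unadjusted, 1 after adjustment and 0 at the threshold of the study. In MASM + TBI against control the count was 0, where 3.7% of all genes were called. It was 1 with normexp (5.86% of all genes), 1 with only the 2 groups compared (4.33%) and 1 with the trended and robust prior (4.61%). It was 2 with slide as a random block (8.54%) and 0 with the replicate block (0.857%). Leaving out 1 rat gave 0 to 1, where 1.42% to 4.6% of all genes were called. At the threshold of the study it was 1 in limma (9.18%) or by the methods' t-test. With the unadjusted methods' t-test it was 11, where 8.19% of all genes were higher and 9.53% lower. With equal variances that test gave 11, 1 and 1. In MASM + TBI against TBI the count was 0, and it was 0 with the replicate block, 1 at the threshold of the study in limma, 0 at that threshold by the methods' t-test and 5 with the unadjusted methods' t-test, and leaving out 1 rat gave 0 to 1. With equal variances that test gave 7, 0 and 1.

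The constitutive medians were 0.12, 0.19 and 0.04 with each array scaled to its 75th percentile, in the comparisons of TBI with control, MASM + TBI with control and MASM + TBI with TBI, against 0.07, 0.06 and -0.01 with quantile normalization. They were 0.07, 0.03 and -0.04 with the replicate block, and 0.05 to 0.07, 0.03 to 0.07 and -0.04 to 0.01 without 1 rat. The immunoproteasome medians stayed below 0 under all alternatives run, from -0.48 to -0.09, from -0.60 to -0.21 and from -0.44 to -0.11, and were -0.24, -0.32 and -0.15 with the replicate block. Over all genes, the 75th percentile scaling gave 698 higher and 1523 lower in TBI against control in place of 399 and 491, and 1013 higher and 375 lower in MASM + TBI against TBI in place of 52 and 93.

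The differences within pairs of exchanged subunits, in MASM + TBI against control, ran from -1.29 to -0.66 for Psmb8 over Psmb5, from -1.55 to -1.12 for Psmb9 over Psmb6 and from -0.47 to -0.11 for Psmb10 over Psmb7 without 1 rat, and were -0.70, -1.18 and -0.17 with the replicate block. In MASM + TBI against TBI they ran from -0.79 to 0.01, from -1.22 to -0.62 and from -0.40 to -0.07, and were -0.11, -0.81 and -0.10 with the replicate block. In TBI against control they ran from -0.97 to -0.12, from -0.65 to -0.05 and from -0.22 to 0.11, and were -0.59, -0.37 and -0.07 with the replicate block. For Psmb10 over Psmb7 in MASM + TBI against control, the lowest value over all alternatives was -0.54, as in MASM + TBI rat 3 on slide 1.

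The sign changes were in genes that had not passed, most of them with values near 0, and are given as log2 differences. With each array scaled to its 75th percentile, the values were Psmb7 0.01, Psmd5 0.02 and B2m -0.01 in TBI against control, and Psmb7 0.03 and Ubb 0.04 in MASM + TBI against control, and Psme2 0.02, Psmb5 0.01, Psmb6 0.03, Psmb7 0.02, Irf9 0.00 and Cd3e 0.49 in MASM + TBI against TBI. With normexp, the values were Psmb7 0.01 and Psmd5 0.01 in TBI against control, and Psmd14 -0.01, Psmd12 -0.00, Psme3ip1 0.01 and Cd3e 0.00 in MASM + TBI against TBI. With slide as a fixed block, the values were Psmb5 -0.02 and Psmc3ip 0.12 in MASM + TBI against control. With the replicate block, the values were Psmc3ip 0.01 in MASM + TBI against control, and Psmd14 -0.00, Irf7 0.02, Irf9 0.06, Ccng1 -0.04 and Cd3g 0.19 in MASM + TBI against TBI. With the mean over probes, the values were Ifit2 0.03 and Rsad2 -0.01 in MASM + TBI against TBI. With the filter on dim probes, the values were Cd3g 0.19 and Cd79b 0.38 in MASM + TBI against TBI. With slide as a random block, the values were Cd3g 0.02 in MASM + TBI against TBI. Without 1 rat, in TBI against control, the values ran as follows, Psmb9 from -0.51 to 0.10, Psmb10 from -0.34 to 0.09, Psmb7 from -0.15 to 0.06, Psmd5 from -0.13 to 0.08, Psmd13 from -0.06 to 0.12 and Ubb from -0.02 to 0.17. Without 1 rat, in MASM + TBI against control, the values ran as follows, Psmb5 from -0.02 to 0.04, Psmb7 from -0.18 to 0.03 and Psmc3ip from -0.08 to 0.03. Without 1 rat, in MASM + TBI against TBI, the values ran as follows, Psmb6 from -0.04 to 0.04, Psmb7 from -0.10 to 0.04, Psmd14 from -0.07 to 0.06, Irf7 from -0.32 to 0.04, Irf9 from -0.06 to 0.07, Isg15 from -0.17 to 0.24, Oas1a from -0.02 to 0.34, Ifit3 from -0.03 to 0.26, Ccng1 from -0.04 to 0.32, Bax from -0.08 to 0.02, Cd3e from -0.20 to 0.05, Cd3g from -0.37 to 0.28 and Cd79b from -0.23 to 0.05.

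Slide as a fixed block was fitted for MASM + TBI against control, where Psmb9 had -1.38, and not for the other comparisons, since no slide held TBI rats beside others. Its estimate rests on MASM + TBI rat 3, the 1 rat of that group on the slide of the control rats. Signal over background limits the values of Psma8 and of the T and B cell markers that were not above background in 1 group or more, Cd3e, Cd5, Cd2 and Cd79b, whose differences depend on the background correction. When TBI rats or MASM + TBI rats are left out, the spread shared by all groups changes, and calls between the other groups change with it.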
